A study of Mus musculus with 8 samples.

Results

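A set of 38 known imprinted genes was followed in neonatal cardiomyocytes (NCMs) after in utero exposure to diesel exhaust (DE) or filtered air (FA). The genes were matched by symbol among the 27179 genes of the count table, and every one of the 38 had a row. By general knowledge 23 are expressed from the paternal allele and 14 from the maternal allele, and Gnas gives transcripts from both, depending on the isoform. The libraries came from male C57Bl/6J offspring at postnatal day 0, whose dams breathed FA or DE from embryonic day 0.5 until late gestation. Each library held the NCMs of 1 heart, with 4 FA libraries (replicates 2, 3, 4 and 6) and 4 DE libraries (replicates 1, 7, 3 and 5). DE 3 and DE 5 carry the number 12 in their sample names and the other 6 libraries the number 11, and what that number stands for is not stated in the labels. The labels do not say which neonates shared a litter, so p-values measure the spread between these hearts. Below, values of the 8 libraries are always given in the order FA 2, 3, 4, 6 and DE 1, 7, 3, 5.

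An imprinted gene is transcribed mainly from a single parental chromosome, because DNA methylation laid down in the egg or the sperm marks the copies differently. Many imprinted genes lie in shared domains, in which a single methylated control region governs several genes, often together with a long non-coding RNA. As a group they are known for roles in fetal growth, and paternally and maternally expressed members often act in opposite directions on it. Gene counts do not separate the parental alleles, so the parental class is a label brought to these data and allelic expression was not measured.

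Library totals ran from 17943024 to 39839737 counts. Of all 14966 genes tested, 868 were called between DE and FA, which is 5.8%, with 3.58% called higher and 2.22% called lower in DE. To be called, a gene had to differ by at least 25% and have an adjusted p no larger than 0.05 in the quasi-likelihood test of edgeR, adjusted after Benjamini and Hochberg over all tested genes. Cardiomyocyte markers were abundant in every library, with a summed level of 7 markers between 37973.3 and 54730.3 CPM (counts per 1e6 of a library's total, corrected by TMM factors). Of the hepatocyte list, Alb, Afp and Serpina1a had 3 counts or fewer over the 8 libraries, and Apoa1 had 340. Of the skeletal muscle list, Myod1 and Myf5 had 1 count or none, and Acta1, which cardiac muscle also makes, had 10319.

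Of the 38 imprinted genes, 34 had enough counts to be tested and 7 of them were called (20.6%, against the 5.8% of all tested genes). Dlk1, Ndn and Inpp5f from the paternal class and H19, Meg3 and Rian from the maternal class were higher in DE, and the paternally expressed Zrsr1 was lower. The level in all 4 DE libraries lay outside the range of the 4 FA libraries for those 7 genes and for Magel2. That makes 8 of 34 genes without overlap (23.5%), where 14.7% of all tested genes had none. The 7 of them that lay higher compare with 7.43% of all genes and the 1 that lay lower with 7.26%. An unadjusted p under 0.05 was found for 14 of the 34 members and for 25.6% of all genes. The untested members were Ascl2 with 37 counts over all libraries, Phlda2 with 48, Slc22a3 with 74 and Snrpn with 3. In RNA from a whole preparation of cells, fewer cells of a type and less RNA per cell cannot be told apart.

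The paternally and the maternally expressed genes were then set side by side. Of the 22 paternally expressed genes tested, 11 had a higher and 11 a lower estimate in DE, and the median log2 fold change was 0.00, the same as over all tested genes, of which 50.5% were higher in DE. Their changes ran from -0.46 for Zrsr1 to 1.15 for Dlk1, and 4 were called (18.2%, against 5.8% of all tested genes), 3 higher and 1 lower. Of the 11 maternally expressed genes tested, 8 had a higher and 3 a lower estimate, and the median of their log2 fold changes was 0.15, within a range from -0.94 for Ube3a to 0.75 for Meg3. Among these 3 were called (27.3%, against the same 5.8%), all of them higher. With 1 library left out, 1 to 3 paternally and 1 to 4 maternally expressed genes were called. Of all tested genes, 1.53% to 7.93% were called in those fits. Groups did not overlap for 5 paternally expressed genes (22.7%) and for 3 maternally expressed genes (27.3%), against 14.7% of all tested genes. The maternal median depended on which genes were counted, as it was 0.64 over the 7 tested genes left when those whose imprinting is limited to some tissues or isoforms were set aside. The tested genes set aside were Ube3a, Zim1, H13 and Tssc4, while Grb10 was kept. Among those left, Meg3, Rian and Mirg are neighbors in the Dlk1-Dio3 domain, so they are not separate evidence on the class. Leaving out 1 library moved the maternal median over all 11 to between 0.10 and 0.46, with 0.46 without FA 3 and 0.33 without DE 1. The paternal median without genes of limited imprinting, over 20 genes, was 0.00. Both classes therefore held genes that rose, and the plot of fold changes shows them interleaved.

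**Figure D1:**
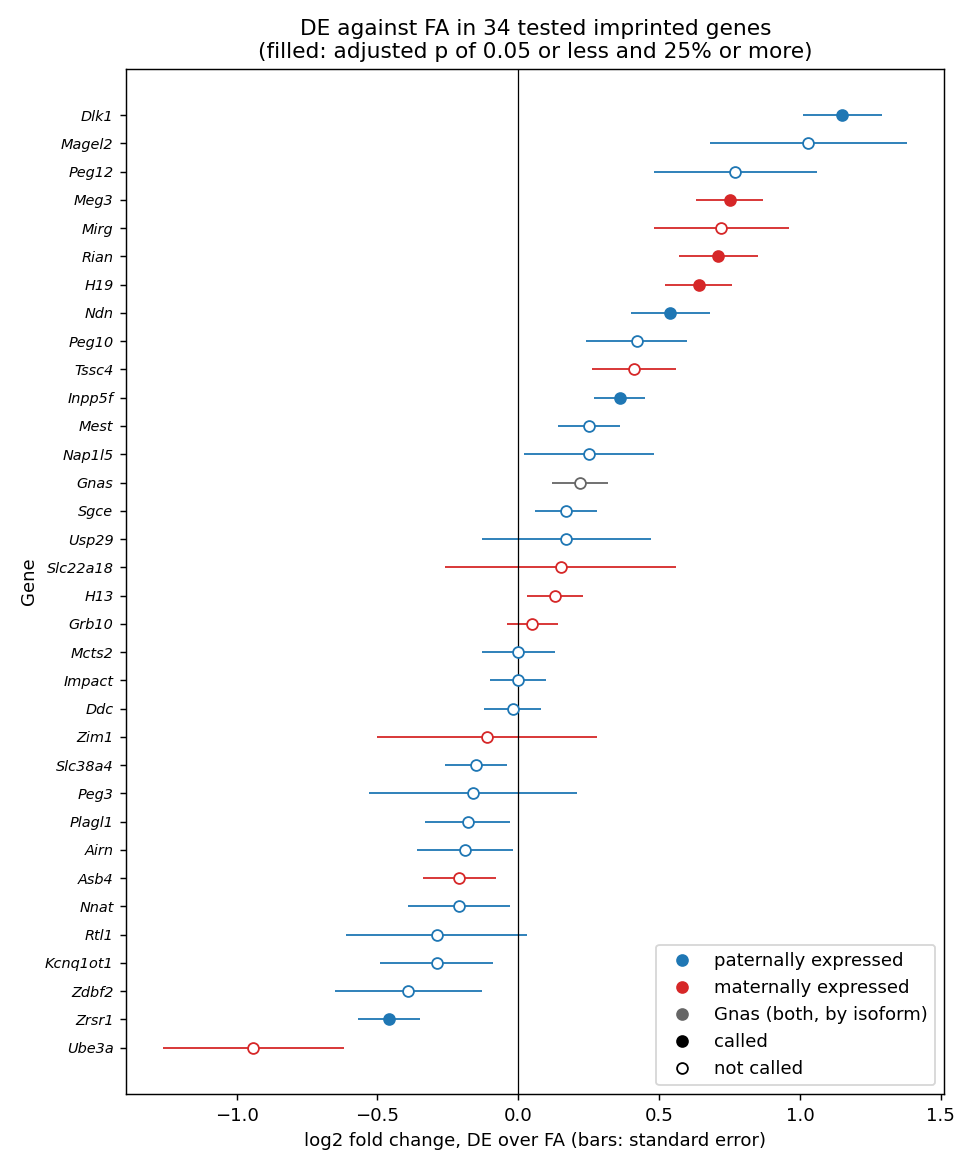
Log2 fold change of DE over FA for the 34 tested imprinted genes, with bars for the standard error of the edgeR fit (n = 4 libraries per group); blue marks paternally expressed genes, red maternally expressed genes and grey Gnas, and filled points were called. The 6 genes called higher lie between 0.36 and 1.15, the 1 called lower at -0.46, and Ube3a has the lowest estimate, -0.94, without a call.

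The summed level of the maternal class did separate the groups, and H19 carried most of it. The 14 maternally expressed genes together gave 3071.3 to 3400.1 CPM in FA and 4252.8 to 4906.9 CPM in DE. H19 alone gave 1976.7 ± 262.8 CPM (SD, n = 4) in FA and 3090.4 ± 317.2 CPM in DE. The 23 paternally expressed genes gave 1691.6 to 2050.6 CPM in FA and 1830.7 to 2194.9 CPM in DE, with overlapping groups. No test was made on these sums, since members were chosen with results known.

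Levels differed widely between the 34 tested members. Per kilobase of the longest annotated transcript, H19 was the highest in FA, at 864.7 ± 114.9 CPM per kb (SD, n = 4), followed by Gnas at 282.6 ± 22.3, Mest at 244.5 ± 34.1 and Grb10 at 178.1 ± 11.6. Gnas and Mest differed by less than the sum of their SDs. Plagl1 at 96.2 ± 14.3 and Ddc at 79.8 ± 2.73 CPM per kb came next and were also within their spread of each other. Slc38a4 stood at 44.5 ± 2.61 and Tssc4 at 17.7 ± 2.00 CPM per kb. At the low end of the tested members, Rtl1, Usp29 and Magel2 had 0.118, 0.119 and 0.127 CPM per kb in FA. The 4 highest were 1 paternally expressed gene, 2 maternally expressed genes and Gnas, and the 3 lowest tested were all paternally expressed. Of the untested members, leaving out Snrpn, whose 3 counts are not read as a level, the maternally expressed Ascl2 and Slc22a3 were lower still, at 0.0766 and 0.0910 CPM per kb.

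**Figure D2:**
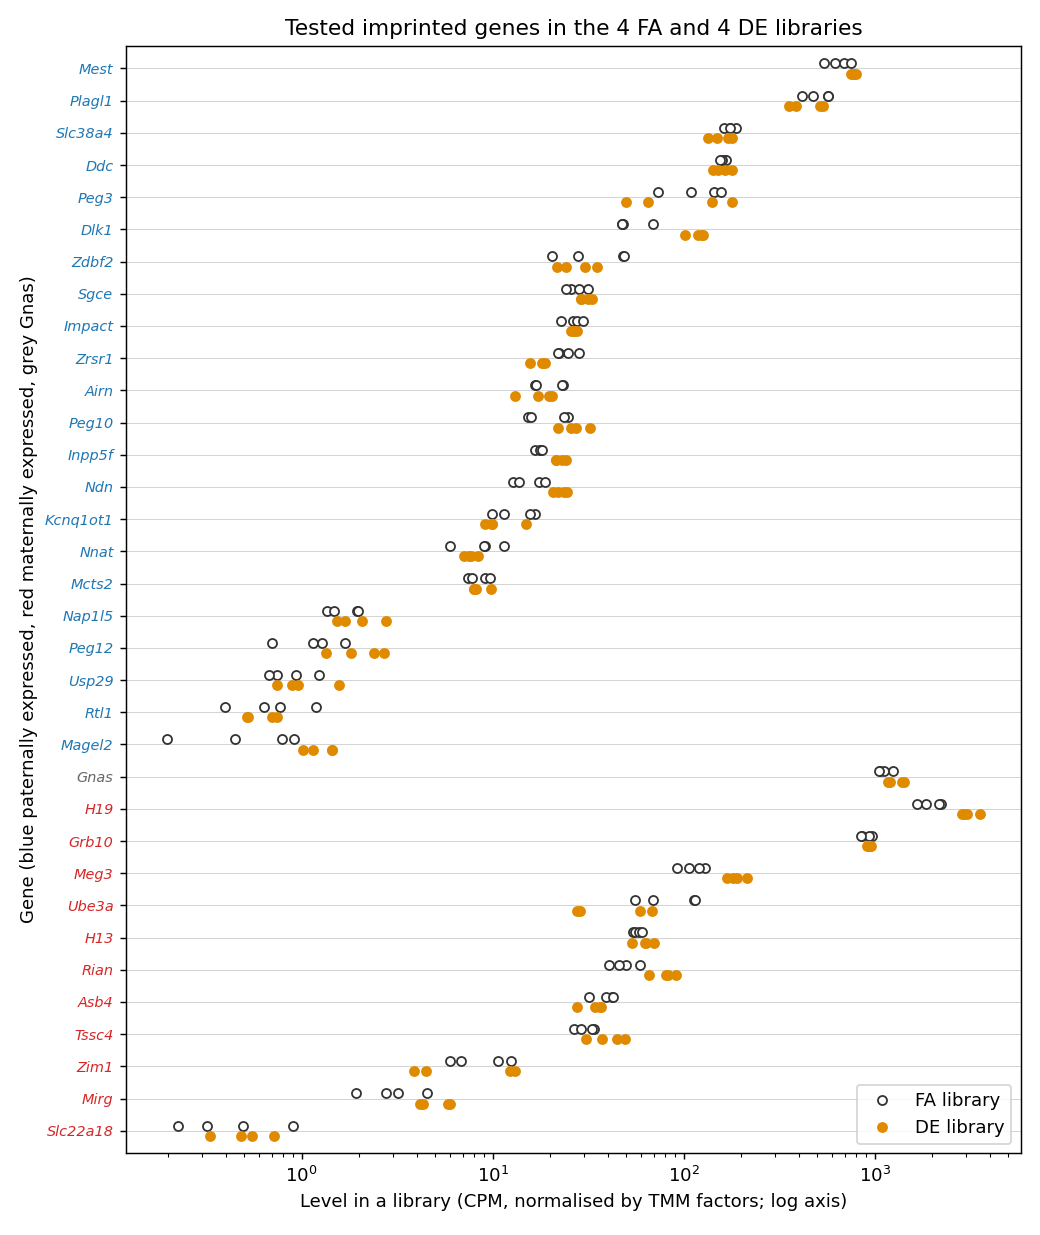
Level of each of the 34 tested imprinted genes in every library, in CPM on a log axis; open points are the 4 FA and filled points the 4 DE libraries, with paternally expressed genes in the upper block, then Gnas, then maternally expressed genes. Dlk1 and Meg3 show DE points wholly to the right of the FA points, Zrsr1 wholly to the left, and Peg3, Zim1 and Ube3a spread widely within both groups.

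The Dlk1-Dio3 domain on chromosome 12 held 3 of the 7 called members, and they came from both parental classes. Dlk1 (chr12:109452485-109463336, + strand on GRCm38), a transmembrane protein of the Notch ligand type that holds progenitor cells undifferentiated, is expressed from the paternal allele. Its levels were 48.1, 47.6, 47.7 and 68.7 CPM in FA and 125.0, 125.6, 119.4 and 101.9 CPM in DE. Every DE library exceeded every FA library, and within FA replicate 6 stood above the other FA libraries. Dlk1 rose 2.22-fold (log2 fold change 1.15 ± 0.14 (SE), adjusted p = 0.00131), and it was called under each of 22 alternative settings, with log2 fold changes from 1.10 to 1.30.

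The long non-coding RNAs of the same domain are transcribed from the maternal allele. Meg3 (chr12:109540996-109571729, + strand), the first of them, had levels of 128.7, 106.2, 119.6 and 92.7 CPM in FA and 213.9, 191.2, 181.1 and 167.8 CPM in DE. The lowest DE library lay above the highest FA library, and Meg3 rose 1.69-fold (log2 fold change 0.75 ± 0.12 (SE), adjusted p = 0.00769). Rian (chr12:109603945-109661716, + strand), which hosts small nucleolar RNAs, had levels of 50.1, 40.5, 45.9 and 59.2 CPM in FA and 90.7, 80.4, 82.6 and 65.5 CPM in DE. Groups were apart here too, by a smaller gap between FA 6 and DE 5, and Rian rose 1.63-fold (log2 fold change 0.71 ± 0.14 (SE), adjusted p = 0.016). Mirg (chr12:109734981-109749458, + strand), a host of miRNAs, had levels of 2.75, 3.19, 1.92 and 4.52 CPM in FA and 4.30, 4.16, 5.97 and 5.86 CPM in DE. FA 6 was within the DE range, and the difference did not pass the test (log2 fold change 0.72 ± 0.24 (SE), adjusted p = 0.0945). Mirg was called in 3 of 22 alternatives, which were DESeq2 (adjusted p = 0.036), the likelihood ratio test (adjusted p = 0.0426) and the fit without FA 6 (log2 fold change 0.95, adjusted p = 0.0407). Among libraries numbered 11 alone it had 0.45 (adjusted p = 0.462).

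Rtl1 (chr12:109564900-109604418, - strand), a retrotransposon-derived gene of the paternal allele needed in placenta and muscle, was the exception in the domain. Its levels were 0.775, 0.399, 1.19 and 0.639 CPM in FA and 0.696, 0.746, 0.516 and 0.524 CPM in DE, from 147 counts in all. The groups overlapped throughout (log2 fold change -0.29 ± 0.32 (SE), adjusted p = 0.593). Of the 5 domain members 3 were called (60%, against 5.8% of all tested genes), which is a description of a small set. The ratio of Rian to Meg3 was alike in the groups, with a mean log2 ratio of -1.20 in FA and -1.24 in DE. The log2 ratio of Dlk1 to Meg3 averaged -1.08 in FA and -0.68 in DE, with FA 6 at -0.43 above every DE library and the other FA libraries below all of them.

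**Figure D3:**
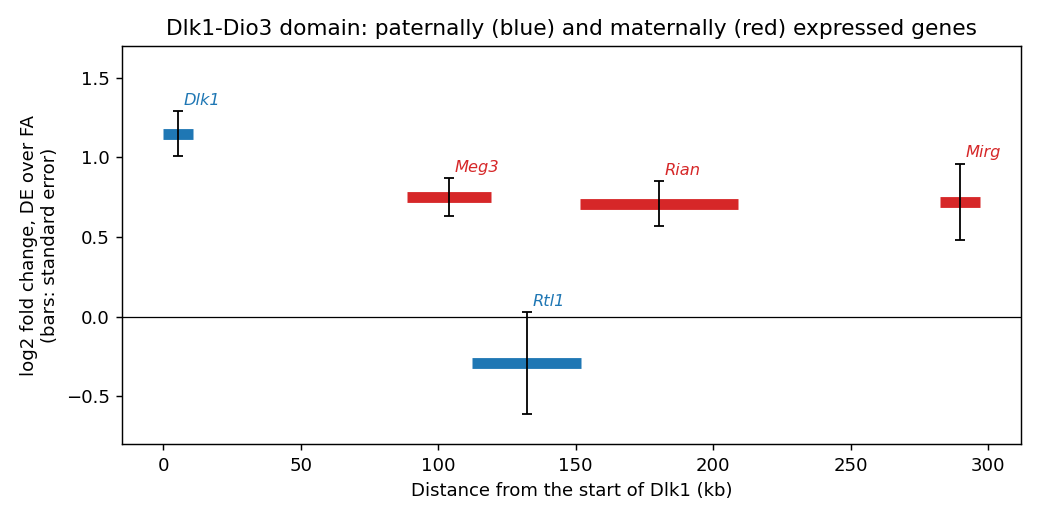
Log2 fold change of DE over FA (vertical axis, bars for the standard error) against distance from the start of Dlk1 in kb; each thick line spans 1 gene, blue for the paternally and red for the maternally expressed. Dlk1 at 1.15 and the maternally expressed Meg3, Rian and Mirg at 0.75, 0.71 and 0.72 all lie above 0, while Rtl1 lies at -0.29 with a bar that reaches above 0.

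Because Dlk1, Meg3 and Rian rose together, a RefSeq promoter of each (GRCm38.p6, 250 bases before to 50 after an annotated start) is shown, which for Meg3 is the first of 2. For Dlk1 this window begins after the gene start given above. Capitals mark GCGGCA, the reverse complement of TGCCGC, the letters of the motif that ZFP57, a zinc finger protein that keeps imprints, is known to read when methylated. Both strands were searched.
Dlk1 promoter, chr12:109452573-109452872, + strand: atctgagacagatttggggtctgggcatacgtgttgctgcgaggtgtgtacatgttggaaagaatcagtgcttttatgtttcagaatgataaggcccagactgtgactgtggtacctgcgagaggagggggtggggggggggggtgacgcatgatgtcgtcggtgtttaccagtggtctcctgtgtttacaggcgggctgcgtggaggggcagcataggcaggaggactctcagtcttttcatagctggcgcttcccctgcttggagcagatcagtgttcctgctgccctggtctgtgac
Meg3 promoter, chr12:109540746-109541045, + strand: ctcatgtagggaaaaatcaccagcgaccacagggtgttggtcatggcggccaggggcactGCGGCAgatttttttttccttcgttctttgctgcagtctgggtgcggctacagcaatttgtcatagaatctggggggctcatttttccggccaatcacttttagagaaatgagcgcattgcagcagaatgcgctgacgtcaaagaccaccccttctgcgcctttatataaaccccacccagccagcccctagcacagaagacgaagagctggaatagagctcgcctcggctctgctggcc
Rian promoter, chr12:109603695-109603994, + strand: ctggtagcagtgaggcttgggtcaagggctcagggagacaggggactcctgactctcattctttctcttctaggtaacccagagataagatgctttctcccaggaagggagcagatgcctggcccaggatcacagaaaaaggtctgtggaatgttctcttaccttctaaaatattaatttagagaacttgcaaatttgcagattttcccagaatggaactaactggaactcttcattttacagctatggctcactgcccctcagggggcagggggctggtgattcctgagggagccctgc
Of these 3, the Meg3 promoter held the motif once, and it held 13 CpG, against 9 for Dlk1 and 0 for Rian. The second Meg3 promoter, chr12:109545148-109545447, held no match and 1 CpG. RefSeq promoters were found for 33 of the 38 members, in 48 sequences. The motif was in 11 of them (22.9%), against 11.6% of all 32851 promoters of the same length, and the median number of CpG was 11.5 against 7. Some sequences overlap, as with Mest, so the same sites can count more than once. By gene, 10 of the 33 members held the motif. The motif itself contains a CpG, and the part of CpG number in its share was not tested. A match of letters is a description and not a bound site.

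The domain also holds a large cluster of maternally expressed miRNAs, of which some are shown: those that lie in Meg3, Rian or Mirg or opposite Rtl1, and a pair outside these genes that shares a seed. RefSeq lists 57 hairpins between Dlk1 and Mirg. Capitals mark the seed, bases 2 to 8, by which a miRNA pairs with its targets.
mmu-miR-770-3p, chr12:109563744-109563765, + strand: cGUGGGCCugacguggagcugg
mmu-miR-431-5p, chr12:109590459-109590479, + strand: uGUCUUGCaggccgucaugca
mmu-miR-433-3p, chr12:109591781-109591802, + strand: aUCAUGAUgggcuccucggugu
mmu-miR-127-3p, chr12:109592888-109592909, + strand: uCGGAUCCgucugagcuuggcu
mmu-miR-434-3p, chr12:109594565-109594586, + strand: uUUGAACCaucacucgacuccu
mmu-miR-136-5p, chr12:109595331-109595352, + strand: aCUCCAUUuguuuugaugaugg
mmu-miR-370-3p, chr12:109618305-109618326, + strand: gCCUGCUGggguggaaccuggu
mmu-miR-379-3p, chr12:109709102-109709123, + strand: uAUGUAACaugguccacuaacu
mmu-miR-411-3p, chr12:109710225-109710246, + strand: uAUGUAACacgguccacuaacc
mmu-miR-377-3p, chr12:109740553-109740574, + strand: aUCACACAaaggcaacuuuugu
mmu-miR-410-3p, chr12:109743764-109743784, + strand: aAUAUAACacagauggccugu
miR-770 lies in Meg3, miR-370 in Rian, and miR-377 and miR-410 in Mirg. miR-431, miR-433, miR-127, miR-434 and miR-136 lie on the strand opposite to Rtl1, within its exons. With the strand setting of the counting unstated, reads of their precursor and of Rtl1 cannot be told apart. miR-379-3p and miR-411-3p, the pair outside these genes, share the seed AUGUAAC, and 9 of the 102 seeds in the cluster belong to 2 mature names each. Libraries made from poly-A RNA do not capture mature miRNAs: 54 hairpins had a row, 21 of these were at 0, and all of them summed to 213 counts over 8 libraries. Mature miRNA levels were not measured.

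H19 (chr7:142575530-142578146, - strand), a maternally expressed non-coding RNA that restrains growth, shares a control region with the growth factor gene Igf2. Its levels were 1671.7, 2210.9, 1843.7 and 2180.6 CPM in FA and 2844.8, 3051.5, 3548.6 and 2916.8 CPM in DE, and the lowest DE library lay above the highest FA library. H19 rose 1.56-fold (log2 fold change 0.64 ± 0.12 (SE), adjusted p = 0.0139). The call was lost among the libraries numbered 11 alone (log2 fold change 0.57, adjusted p = 0.0751) and without FA 4 (0.60, adjusted p = 0.0619). H19 holds miR-675 within its exons, of which both arms are shown with the seed in capitals.
mmu-miR-675-5p, chr7:142577112-142577133, - strand: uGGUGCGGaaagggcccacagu
mmu-miR-675-3p, chr7:142577078-142577099, - strand: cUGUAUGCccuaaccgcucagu
The hairpin row of miR-675 had 0 counts. The partner Igf2, paternally expressed, ranged from 2078.8 to 2269.5 CPM in FA and from 2622.0 to 3050.5 CPM in DE, and it rose as well (log2 fold change 0.39 ± 0.09 (SE), adjusted p = 0.0345). The Igf2 call held in 13 of 22 alternatives and was lost among the libraries numbered 11 alone (adjusted p = 0.115) and in 6 of 8 fits without 1 library. The log2 ratio of H19 to Igf2 ran from -0.31 to 0.07 in FA and from 0.00 to 0.28 in DE, with overlap.

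In the Snrpn-Ube3a domain of chromosome 7, the paternally expressed genes next to Ndn had positive estimates and the maternally expressed Ube3a a negative one. Ndn (chr7:62348277-62349928, + strand), which encodes necdin, a growth suppressor of neurons and muscle, had levels of 12.8, 17.4, 13.7 and 18.9 CPM in FA and 24.6, 20.7, 23.6 and 22.0 CPM in DE. No FA library reached the lowest DE library, and Ndn rose 1.46-fold (log2 fold change 0.54 ± 0.14 (SE), adjusted p = 0.0434). It was called in 12 of 22 alternatives. Magel2 (chr7:62376979-62381640, + strand), a regulator of ubiquitin ligases, had levels of 0.909, 0.448, 0.790 and 0.197 CPM in FA and 1.45, 1.44, 1.15 and 1.02 CPM in DE, from 217 counts. Its groups did not overlap, but the spread was wide and it did not pass the test (log2 fold change 1.03 ± 0.35 (SE), adjusted p = 0.101).

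Peg12 (chr7:62461871-62464510, - strand), which encodes a GSK3-binding protein, had levels of 1.15, 0.698, 1.69 and 1.28 CPM in FA and 1.82, 2.40, 2.70 and 1.35 CPM in DE, with overlap (log2 fold change 0.77 ± 0.29 (SE), adjusted p = 0.128). Ube3a (chr7:59228750-59310837, + strand), a ubiquitin ligase whose imprinting is known from neurons, had levels of 112.9, 55.4, 114.5 and 68.8 CPM in FA and 59.2, 68.6, 27.7 and 28.7 CPM in DE. FA 2 and FA 4 were the highest and DE 3 and DE 5 the lowest, with FA 3, FA 6, DE 1 and DE 7 between them. The estimate did not pass the test (log2 fold change -0.94 ± 0.32 (SE), adjusted p = 0.103), and it was -0.47 (adjusted p = 0.423) among libraries numbered 11 alone. Ube3a was called in 3 of 22 alternatives, among them 1 surrogate variable (-0.68, adjusted p = 0.000505) and the likelihood ratio test (adjusted p = 0.041). Ube3a shares 1803 of its 20626 exon bases with Snhg14 on the opposite strand. Snrpn, a splicing factor gene, was at 0 in 6 libraries, 0.0492 CPM in FA 6 and 0.0574 CPM in DE 3. Its overlapping gene Snurf was at 0 in every library, and how the counting treated reads shared by such genes is not stated, so no expression is read from the Snrpn row.

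Zrsr1 (chr11:22972005-22976496, + strand), an intronless gene for a splicing factor, was the only member called lower. Its levels were 24.7, 28.3, 22.2 and 22.0 CPM in FA and 18.8, 18.3, 15.7 and 18.1 CPM in DE, and every DE library lay below every FA library. Zrsr1 fell to 0.73 of the FA level (log2 fold change -0.46 ± 0.11 (SE), adjusted p = 0.0411). It lies within Commd1, which is maternally biased in brain, and shares 412 of its 4492 exon bases with it on the opposite strand. Commd1 itself did not pass the test (log2 fold change 0.17 ± 0.12 (SE), adjusted p = 0.398). The log2 ratio of Zrsr1 to Commd1 ran from -1.13 to -0.61 in FA and from -1.74 to -1.25 in DE. Its paralog Zrsr2 had a log2 fold change of -0.01 ± 0.10 (adjusted p = 0.955).

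Inpp5f (chr7:128611181-128696436, + strand), a phosphoinositide phosphatase gene with a paternally expressed isoform known from brain, had a narrow spread within groups. Its levels were 17.6, 16.7, 17.8 and 18.1 CPM in FA and 21.5, 24.1, 21.5 and 23.0 CPM in DE. The groups were apart and Inpp5f rose 1.28-fold (log2 fold change 0.36 ± 0.09 (SE), adjusted p = 0.0468). The call was lost when any single library was left out (adjusted p up to 0.139). Zrsr1 kept its call in 2 of those 8 fits, Ndn in 1, Rian in 6, H19 in 7, and Dlk1 and Meg3 in all 8. Without FA 4 only 2 members were called in all, and 1.53% of all genes. Among the libraries numbered 11 alone 3 members were called (Dlk1, Meg3 and Rian), and 1.75% of all genes. The number as a term in the fit gave the same count of 3 with 2.99% of all genes. Only DE libraries carry the number 12, so in both fits the exposure estimate rests on FA against DE 1 and DE 7. The matching counts are therefore not separate support. Only Dlk1 was left when the 25% difference was built into the test, with 0.762% of all genes. DESeq2 called 8 members and 10.9% of all genes, the likelihood ratio test 10 members and 10.7%, 1 surrogate variable 10 members and 13.4%, and limma-voom 7 members and 5.75%.

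Gnas, Grb10 and H13 are loci known for imprinted isoforms or tissue-dependent imprinting. Gnas (chr2:174284320-174346744, + strand), which encodes the stimulatory G protein alpha subunit and imprinted alternative transcripts, had levels of 1059.4, 1240.2, 1114.8 and 1047.6 CPM in FA and 1172.4, 1208.1, 1424.1 and 1395.4 CPM in DE (log2 fold change 0.22 ± 0.10 (SE), adjusted p = 0.209). Grb10 (chr11:11930499-12037428, - strand), an adaptor that dampens insulin and growth factor receptors, had levels of 970.0, 854.6, 930.2 and 849.6 CPM in FA and 954.4, 945.3, 909.6 and 932.2 CPM in DE (log2 fold change 0.05 ± 0.09 (SE), adjusted p = 0.731). H13 (chr2:152669422-152708668, + strand), a signal peptide peptidase gene, had levels of 54.6, 55.5, 58.0 and 60.8 CPM in FA and 69.8, 62.7, 63.5 and 53.6 CPM in DE (log2 fold change 0.13 ± 0.10 (SE), adjusted p = 0.456). Groups overlapped for each of these 3, and none passed the test. Mcts2, an intronless paternally expressed gene inside H13, ranged from 7.46 to 9.64 CPM in FA and from 7.94 to 9.83 CPM in DE (log2 fold change 0.00).

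The other highly expressed members did not pass the test either. Mest, a paternally expressed hydrolase gene of mesoderm, had levels of 542.9, 619.7, 689.9 and 753.5 CPM in FA and 752.3, 767.5, 793.2 and 779.5 CPM in DE (log2 fold change 0.25 ± 0.11 (SE), adjusted p = 0.184). The DE libraries were close together, and only FA 6 reached them. Plagl1, a zinc finger factor of the paternal allele that regulates other imprinted genes, had levels of 568.5, 414.8, 567.0 and 474.2 CPM in FA and 513.8, 533.6, 355.6 and 388.4 CPM in DE (log2 fold change -0.18 ± 0.15 (SE), adjusted p = 0.495). Ddc, which makes dopamine and serotonin and has a paternally expressed transcript in heart, had levels of 164.1, 167.1, 158.2 and 155.0 CPM in FA and 142.3, 178.4, 150.5 and 164.6 CPM in DE (log2 fold change -0.02 ± 0.10 (SE), adjusted p = 0.92). Slc38a4, a paternally expressed amino acid transporter, had levels of 174.3, 163.2, 188.3 and 174.3 CPM in FA and 178.6, 169.9, 133.6 and 148.8 CPM in DE (log2 fold change -0.15 ± 0.11 (SE), adjusted p = 0.407). Tssc4, of the Kcnq1 domain, had levels of 26.6, 34.0, 29.0 and 33.0 CPM in FA and 30.7, 37.3, 45.0 and 49.3 CPM in DE (log2 fold change 0.41 ± 0.15 (SE), adjusted p = 0.12). DE 1 lay within the FA range of Tssc4 and the other DE libraries above it. Tssc4 was called in 1 of 22 alternatives, the fit without DE 1 (log2 fold change 0.52, adjusted p = 0.0403). Among libraries numbered 11 alone it had 0.14 (adjusted p = 0.681).

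The remaining domains showed no called member. In the Peg3 domain, the paternally expressed zinc finger gene Peg3 ranged from 73.3 to 157.5 CPM in FA and from 50.1 to 179.8 CPM in DE (log2 fold change -0.16 ± 0.37 (SE), adjusted p = 0.818). The maternally expressed Zim1 beside it ranged from 5.98 to 12.5 CPM in FA and from 3.87 to 13.1 CPM in DE (log2 fold change -0.11 ± 0.39 (SE), adjusted p = 0.882). The log2 ratio of Zim1 to Peg3 lay within -3.99 to -3.43 in all 8 libraries, while each gene alone spread widely within groups. Usp29, the third gene there, ranged from 0.677 to 1.23 CPM in FA and from 0.748 to 1.57 CPM in DE, from 223 counts. In the Peg10-Sgce domain, the paternally expressed and retrotransposon-derived Peg10, needed for the placenta, ranged from 15.3 to 24.9 CPM in FA and from 21.9 to 32.4 CPM in DE (log2 fold change 0.42 ± 0.18 (SE), adjusted p = 0.17). Its paternally expressed neighbor Sgce, a sarcoglycan of the muscle membrane, ranged from 24.2 to 31.6 CPM in FA and from 29.0 to 33.3 CPM in DE (log2 fold change 0.17 ± 0.11 (SE), adjusted p = 0.351). The maternally expressed Asb4, an adaptor of ubiquitin ligases, ranged from 31.8 to 42.8 CPM in FA and from 27.7 to 36.8 CPM in DE (log2 fold change -0.21 ± 0.13 (SE), adjusted p = 0.328).

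Airn and Kcnq1ot1 are long non-coding RNAs of the paternal allele that silence neighboring genes in cis. Airn ranged from 16.7 to 23.3 CPM in FA and from 13.1 to 20.4 CPM in DE (log2 fold change -0.19 ± 0.17 (SE), adjusted p = 0.504). Kcnq1ot1 ranged from 9.92 to 16.7 CPM in FA and from 9.17 to 14.9 CPM in DE (log2 fold change -0.29 ± 0.20 (SE), adjusted p = 0.382). The groups overlapped for both, and their maternally expressed neighbors Slc22a3 and Phlda2 were too low to test. Slc22a3, an organic cation transporter that Airn silences in placenta, ranged from 0.282 to 0.448 CPM in FA and from 0.107 to 0.430 CPM in DE. Phlda2, which limits placental growth, ranged from 0.0564 to 0.344 CPM in FA and from 0.0533 to 0.424 CPM in DE. Ascl2, a transcription factor of the placenta, ranged from 0.0492 to 0.199 CPM in FA and from 0.0533 to 0.242 CPM in DE. These 3 were at or below 0.448 CPM in every library, and Slc22a18, a transporter gene next to Phlda2, ranged from 0.226 to 0.897 CPM in FA and from 0.333 to 0.717 CPM in DE (log2 fold change 0.15 ± 0.41 (SE), adjusted p = 0.843).

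The last 4 members, all paternally expressed, had overlapping groups too. Zdbf2, whose imprint is set up in the early embryo, ranged from 20.4 to 48.7 CPM in FA and from 21.6 to 35.1 CPM in DE (log2 fold change -0.39 ± 0.26 (SE), adjusted p = 0.367). Nnat, a proteolipid gene within Blcap, ranged from 5.95 to 11.5 CPM in FA and from 7.11 to 8.41 CPM in DE (log2 fold change -0.21 ± 0.18 (SE), adjusted p = 0.484). Impact, a regulator of translation under amino acid shortage, ranged from 22.9 to 29.6 CPM in FA and from 25.8 to 27.5 CPM in DE (log2 fold change 0.00 ± 0.10 (SE), adjusted p = 0.995). Nap1l5, an intronless gene within Herc3, ranged from 1.36 to 1.98 CPM in FA and from 1.54 to 2.77 CPM in DE (log2 fold change 0.25 ± 0.23 (SE), adjusted p = 0.516). Impact was the most even of these, and Zdbf2 the most spread within FA.

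The libraries also differed within groups in how levels went with transcript length. The slope of log2 CPM on each doubling of length was 0.14 and 0.12 in FA 2 and FA 4 against -0.07 and -0.02 in FA 3 and FA 6, and 0.05 and 0.04 in DE 1 and DE 7 against -0.11 and -0.15 in DE 3 and DE 5. In both groups, the libraries with the steeper slope had the higher level of 12 of the 34 members, among them Ube3a, Peg3, Zim1, Zdbf2, Plagl1 and Meg3, where 17.8% of all tested genes did so. The longest transcripts of these 12 ran from 1.38 kb for Airn to 14.5 kb for Meg3. Kcnq1ot1, at 93.1 kb the longest member, was higher in the steeper libraries of FA and lower in those of DE. The part of length in the levels of single members was not tested. The reverse held for 3 members, Mirg, Slc22a18 and Tssc4, and for 16.5% of all tested genes. With the trends with length and GC content taken out, an alternative chosen after the data were seen, 9 members were called and 10.8% of all genes. Ube3a was then among them (log2 fold change -0.68, adjusted p = 0.0168), Dlk1 kept 1.14 and Meg3 had 1.01. In DE the split by slope coincides with the sample-name number, so these cannot be told apart there.

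**Figure D4:**
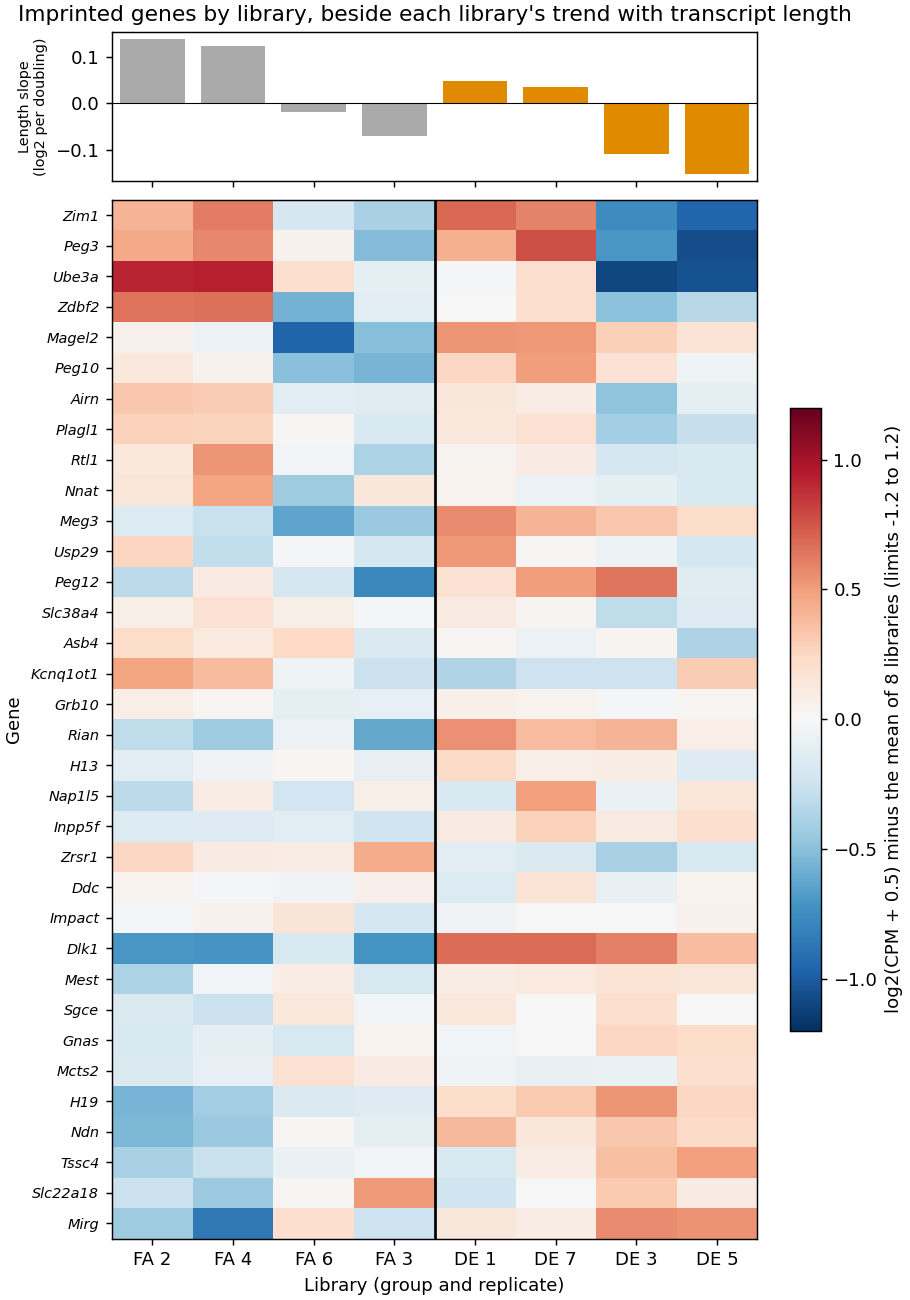
Upper bars give each library's slope of log2 CPM per doubling of transcript length, and the color map below gives log2(CPM + 0.5) of the 34 members minus the gene's mean over 8 libraries, with FA and DE libraries each ordered by slope and genes ordered by the difference between the steeper and the other libraries. Zim1, Peg3, Ube3a and Zdbf2 at the top are higher in the steeper libraries of each group, while Dlk1, Rian and Inpp5f are split by exposure.

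Imprinted genes outside the 38 were looked at for the same classes. Of 17 tested, 3 were called (17.6%, against 5.8% of all tested genes), and all were higher in DE, among them Igf2. Cdkn1c, a maternally expressed inhibitor of the cell cycle in the Kcnq1 domain, ranged from 32.9 to 50.4 CPM in FA and from 66.6 to 81.6 CPM in DE and rose (log2 fold change 0.85 ± 0.13 (SE), adjusted p = 0.00541). Its call held in 22 of 22 alternatives. Dcn, a matrix proteoglycan that is imprinted in placenta, rose by 0.56 (adjusted p = 0.0472). Igf2r, the maternally expressed receptor that clears IGF2, had -0.37 ± 0.16 (adjusted p = 0.173). Of 10 tested genes that keep imprints, 2 were called (20%, against the same 5.8%). Uhrf1, which brings the maintenance methyltransferase to replicating DNA, rose by 1.04 on the log2 scale (SE 0.14, adjusted p = 0.00272), and that methyltransferase, Dnmt1, by 0.47 (SE 0.12, adjusted p = 0.0434). The Dnmt1 call held in 12 of 22 alternatives and was lost among the libraries numbered 11 alone (adjusted p = 0.131) and in 7 of 8 fits without 1 library. Zfp57 had 0.50 (adjusted p = 0.0577) and Dnmt3a -0.47 (adjusted p = 0.0826). Blcap, the host of Nnat, fell (log2 fold change -0.44, adjusted p = 0.0272), while Nnat did not pass the test.

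Some markers of other cells differed between the groups as well. All 8 fibroblast markers had a positive log2 fold change, with a median of 0.66, and Col1a1 and Dcn were called (25%, against 5.8% of all tested genes). Their summed level was 2008.3 to 3460.8 CPM in FA and 3655.4 to 6176.6 CPM in DE, without overlap. Col1a1 was the only 1 of the 8 whose groups did not overlap (12.5%, against 14.7% of all tested genes). The 7 cardiomyocyte markers summed to 49084.4 to 54730.3 CPM in FA and 37973.3 to 44800.6 CPM in DE. Myh6, called lower, gave most of that difference, with means of 23299.4 CPM in FA and 14621.9 CPM in DE, and the groups overlapped for the other 6 markers. None of 6 endothelial, 6 mural, 5 epicardial, 4 leukocyte and 5 erythroid markers tested was called. All 5 erythroid markers had a positive log2 fold change, with a median of 0.40, and their groups overlapped. Acta2 of the mural list had a log2 fold change of -0.63 (adjusted p = 0.0562), with every DE library below every FA library. The mural list went both ways, with 4 of 6 markers higher in DE, 2 lower and a median of 0.16. Of the skeletal muscle list none was called, with log2 fold changes of 0.59 for Myh8 (adjusted p = 0.138, no overlap between groups) and -0.31 for Acta1 (adjusted p = 0.335). Of the hepatocyte list none was called, with 1.07 for Apoa1 (adjusted p = 0.0875) and -0.05 for Ttr (adjusted p = 0.955). Cidea of the brown fat list was called lower and Tubb3 of the neural list higher. The part of the cell mixture in the differences of the imprinted genes was not tested.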

How the data were processed

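Poly-A RNA of NCMs from 8 male neonates was sequenced from stranded libraries. The study's methods state fewer libraries per group than the labels, and the labels were followed. Per the study's methods and the submitters' processing notes, the authors used FastQC, TopHat (mm10), Picard (duplicates marked and kept), GATK, Cufflinks and featureCounts. They deposited raw counts for each Entrez gene, with no scaling. The annotation, strand setting and treatment of shared reads in the counting are not given in the sources used here, and they decide the counts of overlapping genes. Kept duplicates are not independent molecules.

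The filter filterByExpr (minimum count 10) left 14966 of 27179 genes. After TMM scaling, edgeR 4.0.16 in R 4.3.3 was used (glmQLFit and glmQLFTest, exposure as the only term, all 8 libraries, Benjamini-Hochberg adjustment). The biological coefficient of variation was 15.95%. Gene coordinates and sequences came from RefSeq, and strands, exon overlaps and transcript lengths from GENCODE. Both were on GRCm38, the assembly that mm10 names. The fits were tested on simulated data. Alternatives used limma 3.58.1, DESeq2 1.42.0 and sva 3.50.0. Members, lists and classes, which come from general knowledge, were chosen with earlier results of these data known. Values of every library are given for called members, those without overlap between groups, the 8 highest per kilobase, members of domains with a called gene, and Gnas, Grb10 and H13. Of other lists, called genes and Igf2, Igf2r, Cdkn1c and Dnmt1 were to be named, and the rest named were chosen after their values were seen.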

Additional observations from a re-analysis of the deposited data

Results flagged for a closer look

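A library far from the other 3 of its group was found in 3 of 68 combinations of gene and group, where chance alone gives about 5%. Dlk1 was 68.7 CPM in FA 6 and 47.6 to 48.1 CPM in the other FA libraries, and without FA 6 its log2 fold change was 1.30 (adjusted p = 0.000474). Kcnq1ot1 was 14.9 CPM in DE 5 and 9.17 to 9.98 CPM in the other DE libraries. Mcts2 was 9.83 CPM in DE 5 and 7.94 to 8.17 CPM in the other DE libraries.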

How the results depend on the processing

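Over 22 alternative settings and 28 named genes there were 614 values, of which 528 kept direction and call, 59 lost a call, 9 gained one and 18 changed sign. Of the 7 members called, 1 remained with the 25% difference built into the test (0 lower, 1 paternal, 0 maternal), and 3 with the sample-name number as a term or with number 11 alone (3 higher, 0 lower, 1 paternal in each). Both uses of the number compare the FA libraries with DE 1 and DE 7 alone. With library totals alone 0 were lower. The likelihood ratio test called 2 lower and 5 maternal, and 1 surrogate variable called 2 lower, as did the offsets for length and GC content, which were added with the data in view. Leaving out 1 library gave 2 to 7 called, 2 to 6 higher, 0 to 1 lower, 1 to 3 paternal and 1 to 4 maternal. In these fits 5.71% to 20% of the tested members were called and 1.53% to 7.93% of all tested genes. The paternal median was 0.13 with the offsets and -0.01 to 0.06 with 1 library left out. The maternal median was 0.27 at a mean of at least 1 CPM, 0.64 without genes of limited imprinting and 0.10 to 0.46 with 1 library left out. Signs changed only for genes that were not called. With the number as a term and with number 11 alone, Plagl1 had 0.05 and 0.05, Peg3 0.41 and 0.40, and Zim1 0.50 and 0.49. With 1 surrogate variable Peg3 had 0.05 and Zim1 0.15, and with the offsets Zim1 had 0.04. Ddc had 0.00 with upper quartile factors and 0.05 with library totals. With 1 library left out, Ddc ran from -0.09 to 0.03 (0.03 without DE 1, 0.00 without DE 3), Peg3 from -0.51 to 0.09 (0.03 without DE 3, 0.09 without DE 5) and Zim1 from -0.44 to 0.14 (0.07 without FA 4, 0.10 without DE 3, 0.14 without DE 5). The cause was not tested. Magel2 and Rtl1 had no value at a mean of at least 1 CPM. No paired analysis was possible because FA and DE libraries share a single replicate number. Few counts limit Magel2, Rtl1, Usp29, Peg12 and Slc22a18.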
